A study of Homo sapiens with 6 samples.

Results

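Expression of the MCM helicase and origin licensing genes was measured in MDA-MB-231 cells, an established human breast cancer line of basal-like type, with and without irradiation. The genes were taken from the table by symbol, as a set named with earlier results of these data known. They are MCM2, MCM3, MCM4, MCM5, MCM6, MCM7, MCM10, CDC45, CDC6 and CDT1, and all 10 were found among the 58735 genes of the deposited table. The sample labels name the cells SCR and give the genotype as WT, and the study's methods describe SCR cells as carrying a non-targeting shRNA (shSCR), though the paper reports no irradiated cells. RNA of 3 control libraries (0 Gy) and of 3 libraries from cells exposed to 10 Gy from a 137Cs source was sequenced after polyA selection, and the RNA was extracted 24 h after irradiation. All 6 libraries are therefore the same line under the same construct, and dose is the difference that the labels give. Nothing in the labels says that the replicates came from separate cultures, so p-values measure the spread between these libraries, which may be technical.

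DNA replication is prepared in G1, when the origin recognition complex (ORC) and CDC6 sit on an origin and CDT1 brings in the ring of MCM2, MCM3, MCM4, MCM5, MCM6 and MCM7, the core of the replicative helicase. This step is called licensing. At the start of S phase, CDC45 and the GINS complex join the ring with the help of the CDC7 kinase and MCM10, and the helicase begins to unwind DNA. Many of these genes are textbook targets of E2F transcription factors, and their transcripts peak around the G1/S transition in cycling cells.

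The start of these genes can be shown in sequence. Promoter windows from 250 bases before to 50 bases after each start came from a set of 35116 RefSeq promoters (GRCh38.p14). In this set 8 of the 10 genes had at least 1 entry, with 12 entries in all. MCM4 and MCM5 had none in the set, which did not cover every gene and held 8650 of the 12128 genes tested. Their absence is a gap of the set and says nothing about RefSeq itself. The windows were searched on both strands for an 8-letter E2F-type motif, spelled TTTCGCGC, TTTGGCGC, TTTCCCGC or TTTGGCGG. Each of the 8 genes held a match in at least 1 of its windows, while the motif was found in 3.35% of all 35116 promoters and for 7.21% of the 8650 tested genes that had an entry. With the upstream bases alone, 6 of the 8 genes kept a match, against 2.83% of all promoters and 6.09% of those tested genes. The genes that then had none were MCM2 and MCM10, whose matches begin 3 and 6 bases after the start. The following runs of 30 bases are shown because they hold the match nearest to the start of each gene. They read 5′ to 3′ on the gene's strand, and capitals mark the letters of the motif.
MCM2, chr3:127598404-127598433, plus strand: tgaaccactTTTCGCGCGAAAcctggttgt
MCM3, chr6:52284728-52284757, minus strand: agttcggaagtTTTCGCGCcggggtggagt
MCM6, chr2:135876513-135876542, minus strand: ttggtcaggTTTGGCGCGAAAtctccagct
MCM7, chr7:100101388-100101417, minus strand: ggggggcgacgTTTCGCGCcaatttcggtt
MCM10, chr10:13161552-13161581, plus strand: ccggttggaatTTTGGCGGgttcagctgtg
CDC45, chr22:19479884-19479913, plus strand: aggagccgtgaTTTGGCGGgagtcttgacc
CDC6, chr17:40287875-40287904, plus strand: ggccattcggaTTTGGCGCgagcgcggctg
CDT1, chr16:88803747-88803776, plus strand: ggcgcccGCGGGAAATTTGGCGGgaaccgc

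In MCM2 and MCM6 the motif on one strand runs into the motif on the other, so that each capital run is 12 bases long and was read as overlapping matches. In CDT1 a match on the minus strand abuts one on the plus strand, which gives 16 capital bases. MCM3, MCM6, MCM7 and CDC6 each held a further separate match in the same window. For MCM6 this was the same 12 letters again, and the longer stretch that holds both runs is shown because no other window of the 8 genes held 2 such runs.
MCM6, chr2:135876504-135876603, minus strand: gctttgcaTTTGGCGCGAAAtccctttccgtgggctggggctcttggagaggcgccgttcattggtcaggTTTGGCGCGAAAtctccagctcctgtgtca
In MCM7 a CCAAT begins at the last letter of the match shown above. For the windows shown, the start sites of RefSeq lay between 4 and 576 bases from the gene starts in the deposited table, so part of a window can be transcribed. The CCAAT letters, the core of the NF-Y box, were found for 6 of the 8 genes and for 39.7% of all genes with an entry. CHR letters (TTTGAA or TTCGAA), an element known from genes expressed in G2 and mitosis, were found for 1 of the 8, MCM6, and for 19.5% of all genes. The inner letters of the E2F-type motif alone, without its first T pair, occurred for each of the 8 genes, in 48.0% of promoters and for 81.9% of the tested genes with an entry. These matches describe the letters and are not measurements of binding.

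**Figure D1:**
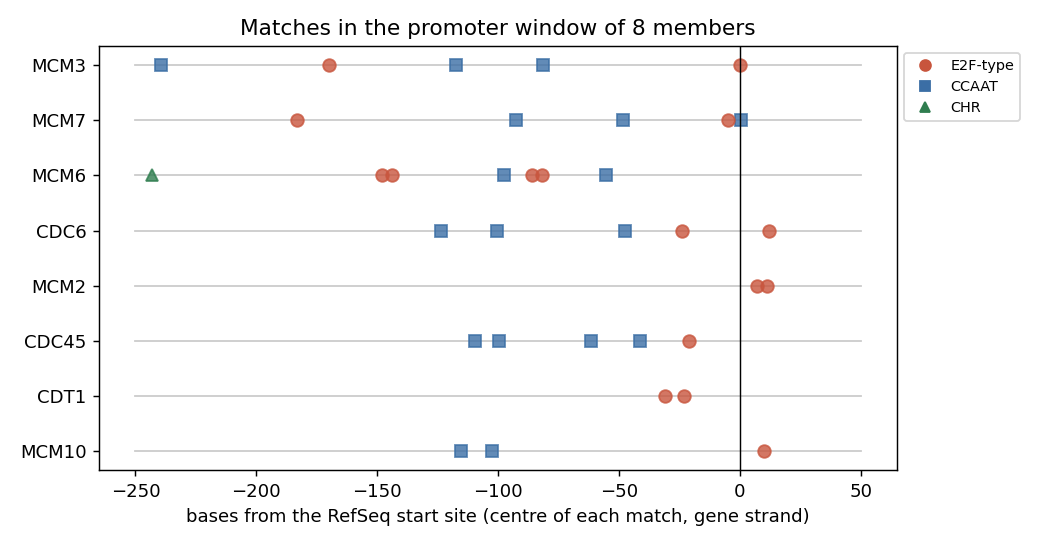
Position of matches in the RefSeq promoter window of the 8 genes with an entry, with bases from the start site on the x axis and 1 gene per line; for MCM7 and CDC45 the entry that holds an E2F-type match is drawn. At least 1 E2F-type match (circles) lies close to the start in every gene but MCM6, whose matches begin at positions -152, -148, -90 and -86.

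The values are FPKM (fragments per kilobase of gene, scaled to depth), as deposited. Every value above 0 came out as whole reads, within 0.1 read, once the gene length and the depth implied for the library were multiplied back, and these reads summed to between 15643641 and 28861781 per library. The members rested on 1005 to 10403 reads per library, which gives a Poisson counting error of 0.98 to 3.15% for a single value. The depth each library was divided by was 0.973 to 0.991 of its recovered reads at 0 Gy and 1.03 to 1.04 at 10 Gy, so the deposited values hold a scaling factor that differs between the doses. Across genes, the correlation on the log2 scale was at least 0.992 within a dose and at most 0.989 between doses. VIM, CD44, EGFR and KRT18, which this line expresses, lay between 26.4 and 312 FPKM, and ESR1, PGR and CDH1 did not exceed 0.479 FPKM in any library. ERBB2, which is low in this line, was between 6.76 and 8.08 FPKM and did not pass the test between doses as deposited. With the FPKM sums of the libraries set equal it was called higher (log2 change 0.21, limma adjusted p = 0.017). The same call came with upper quartile scaling (0.18, limma adjusted p = 0.028) and scaling to recovered reads (0.17, limma adjusted p = 0.038). Median-of-ratios scaling did not give it (0.14, limma adjusted p = 0.06). Of the markers present, VIM was lower after irradiation (log2 change -0.26, limma adjusted p = 0.0029), also under each other scaling tried. CD44 was lower with the deposited scaling alone (-0.11, limma adjusted p = 0.044), and EGFR and KRT18 did not pass. Among markers of other cell types, PTPRC, CD3E and ALB stayed at or under 0.0193 FPKM. PECAM1 and COL1A1 were detected and higher after irradiation, from 1.22 to 1.94 and from 3.03 to 4.19 FPKM, and their part in the results was not tested.

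In unirradiated cells MCM3, MCM7, MCM4 and MCM6 held the top of the order by FPKM as deposited. Among the helicase subunits the level differed 4.19-fold between the most and the least abundant. MCM3 was the most abundant, at 108 ± 4.27 FPKM (SD, n = 3), followed by MCM7 at 90.8 ± 0.95 and MCM4 at 48.8 ± 1.17 FPKM. MCM6 reached 34.4 ± 1.33, CDC6 32.1 ± 1.08, MCM2 29.4 ± 1.505 and CDC45 27.7 ± 0.51 FPKM. MCM5 stood at 25.7 ± 0.85, CDT1 at 23.9 ± 1.47 and MCM10, at the bottom, at 17.9 ± 0.87 FPKM. Neighbours in this order whose libraries overlapped were MCM6 and CDC6, MCM2 and CDC45, and MCM5 and CDT1. The others were separated in all 3 libraries.

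The place of MCM5 depends on the gene length used. The deposited length is the union of all annotated exons, which for MCM5 is 7338 bases against 3534 bases in its principal transcript of GENCODE 29, or 2.08 times as long. Per length of the principal transcript, MCM5 rose from the 8th to the 4th place, at 53.3 ± 1.77, while MCM7 passed MCM3 to the 1st and CDC6 fell from the 5th to the 8th. MCM6 fell from the 4th to the 6th place. The span between the most and the least abundant subunit was then 3.55-fold. Changes after irradiation within a gene do not depend on this choice.

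**Figure D2:**
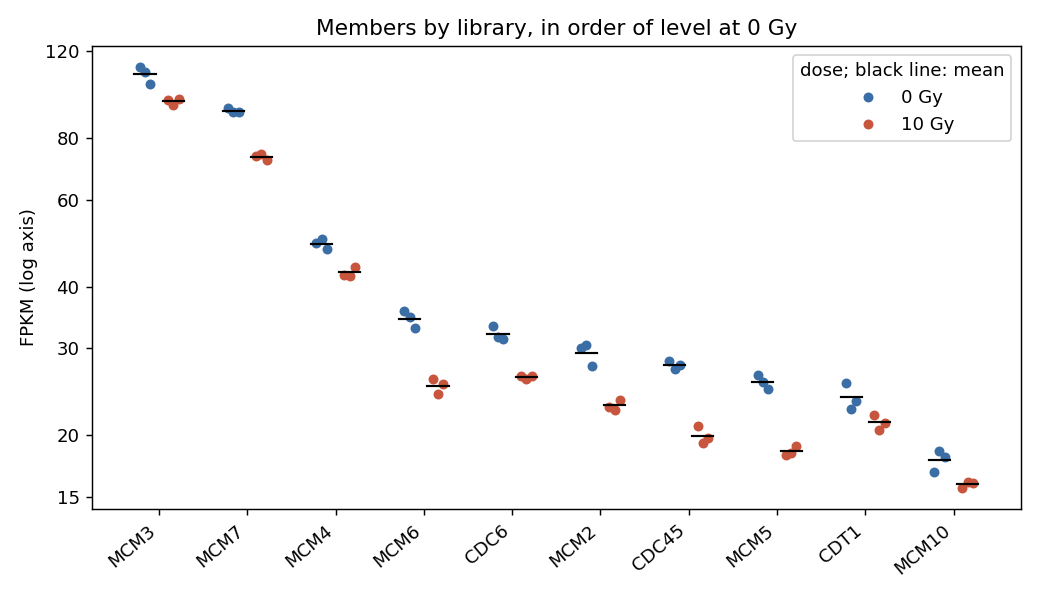
FPKM of each gene in every library on a log axis, in order of the level at 0 Gy, with 3 points per dose and a black line at their mean. For each of the 10 genes all libraries at 10 Gy lie below all libraries at 0 Gy, with the narrowest gaps at CDT1 (0.618 FPKM) and MCM10 (0.823 FPKM).

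After 10 Gy all 10 genes were lower. All 10 passed limma at a Benjamini-Hochberg adjusted p under 0.05, where 23.7% of the 12128 genes tested were called lower and 11.9% higher. In the deposited values the 10 Gy libraries lay below every 0 Gy library for all 10. That held for 32.8% of genes tested, and for 2445 of the 4781 at a mean of at least 10 FPKM. Abundant genes were called lower more often in these libraries, with 41.3% of the 4781 genes at a mean of at least 10 FPKM. The median change of the 10 genes was -0.29 on the log2(FPKM + 1) scale, beside -0.04 for all genes tested and -0.10 for those at 10 FPKM or more. Changes were modest in size, and 3 of the 10 (CDC45, MCM5 and MCM6) fell by at least 1.3-fold, which 2.95% of genes tested did. In RNA from whole cultures, fewer cells in late G1 and S phase and less of these transcripts per cell cannot be told apart.

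Within the helicase ring, MCM5 and MCM6 changed most. MCM5 was measured at 26.5, 25.7 and 24.8 FPKM at 0 Gy and at 18.3, 18.4 and 19.0 FPKM at 10 Gy, a mean that was 27.7% lower. Its log2 change was -0.45 (95% interval -0.53 to -0.36, limma adjusted p = 0.00059). MCM6 went from 35.6, 34.6 and 33.0 FPKM to 26.0, 24.3 and 25.5 FPKM, with a log2 change of -0.43 (-0.53 to -0.34, limma adjusted p = 0.00071). For both genes the gap between the doses was wider than the whole range within either dose. MCM2, a subunit that also carries histones, was at 30.1, 30.4 and 27.7 FPKM and then at 22.9, 22.5 and 23.6 FPKM, a log2 change of -0.34 (-0.44 to -0.24, limma adjusted p = 0.0018).

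MCM7 lost most in absolute terms of FPKM among the subunits. It was at 91.9, 90.2 and 90.3 FPKM at 0 Gy and at 73.6, 74.1 and 72.1 FPKM at 10 Gy, a log2 change of -0.31 (-0.37 to -0.24, limma adjusted p = 0.0007). The spread within each dose was small beside the gap of 16.1 FPKM. MCM3 and MCM4 moved less. MCM4, which forms the catalytic core with MCM6 and MCM7, was at 48.9, 49.98 and 47.7 FPKM and then at 42.2, 42.1 and 43.8 FPKM, a log2 change of -0.19 (-0.27 to -0.11, limma adjusted p = 0.005). MCM3 was at 111, 109 and 103 FPKM and then at 95.3, 93.0 and 95.8 FPKM, a log2 change of -0.18 (-0.27 to -0.09, limma adjusted p = 0.0099). For MCM3 the lowest 0 Gy library was replicate 3, and it was still 7.10 FPKM above the highest library at 10 Gy.

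The loaders CDC6 and CDT1 were both lower, CDT1 by a narrow margin. CDC6, the ATPase that works with ORC, was at 33.4, 31.7 and 31.3 FPKM and then at 26.4, 26.0 and 26.4 FPKM, a log2 change of -0.28 (-0.36 to -0.20, limma adjusted p = 0.0015). CDT1, which escorts the ring to the origin, was at 25.5, 22.7 and 23.5 FPKM and then at 22.0, 20.5 and 21.2 FPKM, a log2 change of -0.16 (-0.28 to -0.04, limma adjusted p = 0.041). The doses did not overlap for CDT1, but replicate 2 at 0 Gy and replicate 1 at 10 Gy lay close together. Without a single library, the adjusted p of CDT1 passed 0.05 for all libraries but replicate 2 at 0 Gy, for example 0.064 without replicate 1 at 0 Gy and 0.13 without replicate 2 at 10 Gy.

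CDC45 and MCM10, which act when the loaded helicase is switched on, were at opposite ends. CDC45, the subunit that joins the ring to form the active helicase, was at 28.2, 27.2 and 27.7 FPKM and then at 20.9, 19.3 and 19.8 FPKM. Its log2 change of -0.45 (-0.54 to -0.37, limma adjusted p = 0.00059) was the largest estimate of the 10, close to that of MCM5, and its mean was 27.9% lower. MCM10 was at 16.9, 18.6 and 18.1 FPKM and then at 15.7, 16.1 and 16.1 FPKM, a log2 change of -0.15 (-0.25 to -0.06, limma adjusted p = 0.024) that was the smallest estimate of the 10. The lowest control library of MCM10 was replicate 1, close to the irradiated libraries. Leaving out any library other than that one raised the adjusted p of MCM10 above 0.05, to between 0.059 and 0.085.

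The size of these changes depends on the scaling. FPKM summed to between 269611 and 278380 per library at 0 Gy and to between 246920 and 254918 at 10 Gy, and setting the sums equal (TPM) raised the 10 Gy libraries by 0.128 on the log2 scale relative to those at 0 Gy. The median change of all genes then became 0.07, and 6 of the 10 genes (MCM2, MCM5, MCM6, MCM7, CDC6 and CDC45) were still called lower, none of them by 1.3-fold, where 8.83% of genes tested were called lower and 25.8% higher. MCM3 and MCM4 had log2 changes of -0.05 and -0.06 with TPM, and CDT1 and MCM10 of -0.04 and -0.03. Relative to the median of all genes with TPM, these 4 changes were -0.12, -0.13, -0.11 and -0.10. All 10 changes stayed below 0 under each scaling tried. Scaling to the recovered reads of each library, which removes the factor found in the deposited values, left 8 called lower and 1 of them by 1.3-fold, beside 13.6% of genes tested called lower and 18.9% higher.

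**Figure D3:**
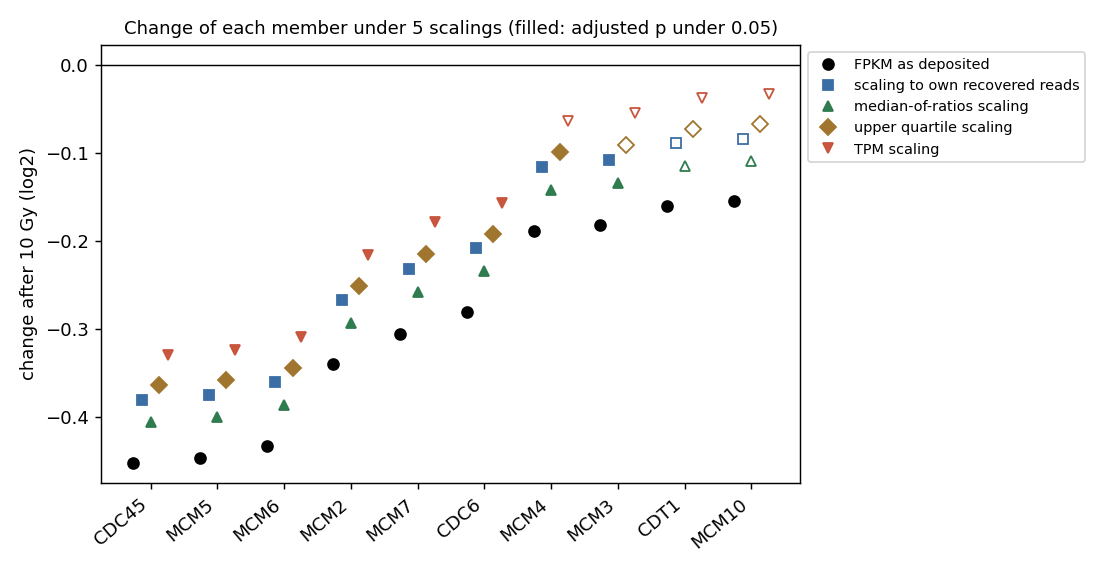
Log2 change after 10 Gy of each gene under the deposited FPKM and 4 other scalings, with filled points where the adjusted p was under 0.05. All points lie below 0, and CDT1 and MCM10 are filled with the deposited scaling alone.

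Ratios within a library are free of any scaling factor, and the shares of the subunits were compared in this way. They still depend on the gene lengths, and only the deposited lengths were used here. The summed FPKM of MCM2 to MCM7 was 337 ± 9.30 at 0 Gy and 277 ± 2.79 at 10 Gy (SD, n = 3), a ratio of 0.824. MCM3 made up 32.3, 32.0 and 31.5% of this sum at 0 Gy and 34.3, 33.9 and 34.2% at 10 Gy. The share of MCM4 was also higher, at 15.4 ± 0.25% against 14.5 ± 0.27%. The shares of MCM5 (7.63 ± 0.07% to 6.70 ± 0.12%), MCM6 (10.2 ± 0.12% to 9.09 ± 0.25%) and MCM2 (8.72 ± 0.24% to 8.29 ± 0.13%) were lower. With these lengths the doses did not overlap in these 5 genes. For MCM2 the margin was narrow, with 8.48% in replicate 3 at 0 Gy and 8.43% in replicate 3 at 10 Gy. Whether the MCM2 doses stay apart with other gene lengths was not tested. The two-sided exact permutation test gave p = 0.1 for each of the 5, the smallest it allows with 3 libraries against 3, so no share can pass 0.05. The share of MCM7 overlapped between doses, at 27.0 ± 0.61% and 26.4 ± 0.62% (exact permutation p = 0.4).

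**Figure D4:**
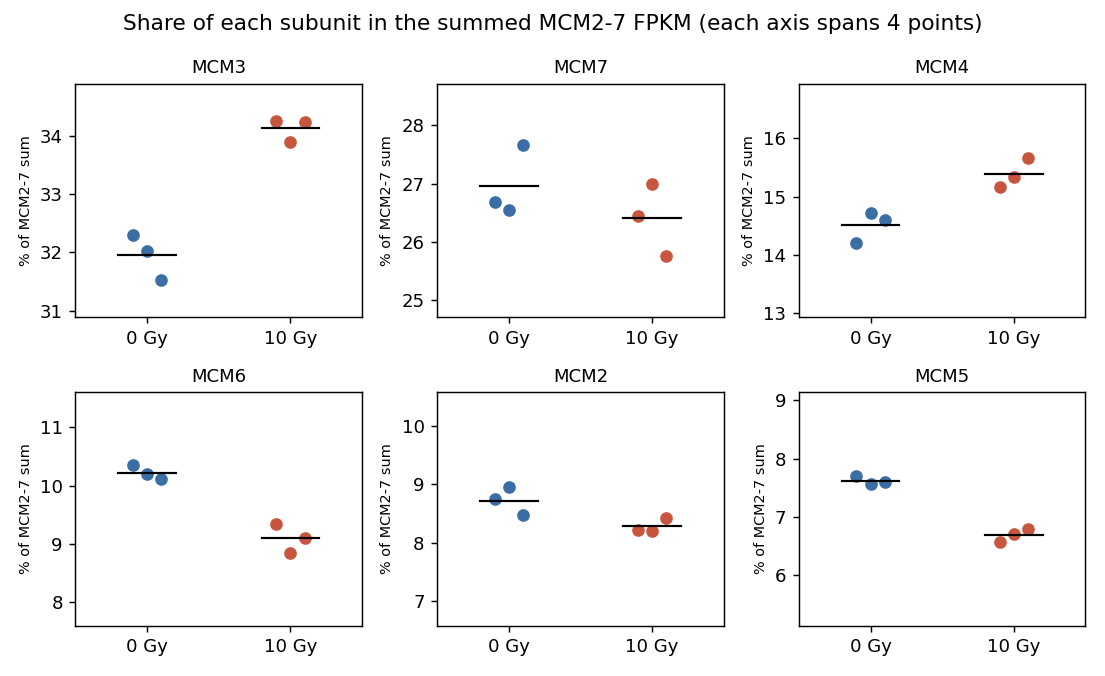
Share of each subunit in the summed FPKM of MCM2 to MCM7, in percent, with 3 libraries per dose and a line at the mean; every axis spans 4 percentage points. MCM3 and MCM4 sit higher at 10 Gy, MCM5, MCM6 and MCM2 lower, and MCM7 overlaps.

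Set against the same sum, CDC6 did not separate, with 9.54 ± 0.19% of the sum at 0 Gy and 9.46 ± 0.03% at 10 Gy (exact permutation p = 0.5). CDC45 was lower relative to the ring, at 8.20, 8.01 and 8.496% and then at 7.51, 7.05 and 7.06%. MCM10 was higher relative to it, at 4.91, 5.47 and 5.55% and then at 5.63, 5.86 and 5.74%, and so was CDT1, at 7.41, 6.67 and 7.20% and then at 7.92, 7.49 and 7.56%. With the deposited lengths, the MCM10 level was 64.5 ± 4.29% of the CDC45 level at 0 Gy and 79.8 ± 4.23% at 10 Gy. CDT1 was 74.3 ± 2.56% and 80.9 ± 2.27% of CDC6. Other gene lengths would shift the percentages of both pairs. The doses did not overlap in these 5 ratios, each with an exact permutation p of 0.1, the smallest possible. A total of 6 shares and 8 such ratios were computed, and no adjustment over them can bring a p below 0.1.

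CDC6 followed the others most closely across the 6 libraries, with a root mean square difference of 0.017 (log2) between its centred profile and the mean of the other 9. MCM10 was the farthest at 0.099, and CDC45 followed at 0.094. Among 6892 protein-coding genes at a mean of at least 5 FPKM outside the 10, the profiles nearest to their mean included those of LONP1, PA2G4, FEZ2 and HSPA9, with differences between 0.0051 and 0.014. LONP1, which encodes a mitochondrial protease, was at 53.3, 51.9 and 51.0 FPKM and then at 42.3, 41.6 and 42.5 FPKM. HSPA9, a mitochondrial chaperone, had a mean of 68.1 FPKM and then of 54.7 FPKM. These profiles span 2 doses, so likeness over 6 libraries mostly means a change of similar size.

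The wider licensing machinery moved unevenly. Of 36 genes in lists of origin recognition, licensing control, helicase activation and firing, fork protection and MCM relatives, 34 were tested, and 16 were called lower and 2 higher (limma). Of all genes tested, 23.7% were called lower and 11.9% higher, and of those at a mean of at least 10 FPKM 41.3% were lower. The median change of the 34 was -0.11, beside -0.04 for all genes tested and -0.10 for those at 10 FPKM or more. With TPM, 9 of the 34 were called lower and 8 higher, beside 8.83% and 25.8% of all genes tested.

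Of the 6 ORC subunits, ORC1 was called lower (-0.20, limma adjusted p = 0.021), from 9.85, 10.4 and 9.80 FPKM to 9.24, 8.26 and 8.37 FPKM. ORC1 is the subunit whose level varies through the cell cycle. ORC2, ORC3, ORC4, ORC5 and ORC6 did not pass the test, with log2 changes between -0.04 and 0.08. Under each of the 4 other scalings ORC1 no longer passed (limma adjusted p between 0.052 and 0.28), and the median of the 6 turned from -0.03 to between 0.01 and 0.08. With TPM 1 of the 6, ORC3, was called higher (0.19, limma adjusted p = 0.042), beside 25.8% of all genes tested.

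In the control of licensing, 7 of 10 genes were called lower and 1 higher, beside 23.7% and 11.9% of all genes tested. GMNN encodes geminin, the protein that binds CDT1 and blocks relicensing, and it was at 31.7, 29.01 and 31.6 FPKM and then at 24.1, 25.1 and 26.0 FPKM (-0.29, limma adjusted p = 0.0041). DTL and SKP2, which mark CDT1 for destruction as parts of ubiquitin ligases, both had log2 changes of -0.30 (limma adjusted p = 0.0022 and 0.0028). The ratio of CDT1 to GMNN was 77.6 ± 3.13% at 0 Gy and 84.9 ± 5.75% at 10 Gy (exact permutation p = 0.1, the smallest possible), and replicate 1 at 0 Gy (80.5%) lay near replicates 2 and 3 at 10 Gy (81.8 and 81.4%). BAZ1A, a chromatin remodelling subunit, was called higher (0.13, limma adjusted p = 0.048). With the deposited scaling, that call was lost without the filter on low genes (limma adjusted p = 0.11) and without the trend (0.068). It was also lost with the replicate block (0.082) and without any single library other than replicate 2 at 0 Gy (0.06 to 0.13). Under each other scaling tried BAZ1A was called higher, by 0.17 to 0.25 (limma adjusted p between 0.0093 and 0.024). With TPM 3 of the 10 were called lower and 2 higher, and GMNN, DTL and SKP2 were the 3 that stayed lower.

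Among the 12 genes of helicase activation and firing, 5 were called lower and 1 higher, beside 23.7% and 11.9% of all genes tested. GINS2 had a larger estimated change than any of the 10 genes described above, from 12.9, 11.02 and 11.95 FPKM to 7.74, 6.999 and 8.05 FPKM (-0.59, limma adjusted p = 0.0013). The other GINS subunits, which form a complex with GINS2 in the active helicase, had smaller estimates. GINS1 was lower (-0.29, limma adjusted p = 0.0021), and GINS3 (-0.18, limma adjusted p = 0.078) and GINS4 (-0.03, limma adjusted p = 0.71) did not pass the test. The kinase CDC7 was lower (-0.26, limma adjusted p = 0.0026), its activator DBF4 did not pass (0.06, limma adjusted p = 0.34), and the alternative activator DBF4B was higher, from 11.4 ± 0.33 to 15.5 ± 0.42 FPKM (0.42, limma adjusted p = 0.00068). GINS1, GINS2, CDC7 and DBF4B kept their calls under each scaling tried, while with TPM the list had 4 called lower and 3 higher and its median turned from -0.10 to 0.0027. DBF4 was among the 3 called higher with TPM (0.18, limma adjusted p = 0.049), but passed under no other scaling.

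Fork protection genes were split, with 2 of 4 called lower, beside 23.7% of all genes tested. CLSPN encodes claspin, the mediator of CHK1 activation, and had a log2 change of -0.42 (limma adjusted p = 0.0016). TIPIN, a partner of TIMELESS at the fork, had one of -0.40 (limma adjusted p = 0.0015). Of the MCM relatives, MCM8 was lower (-0.12, limma adjusted p = 0.04) with the deposited scaling alone, and MCM9 and MCMDC2 were below the minimum of 1 FPKM and were not tested.

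**Figure D5:**
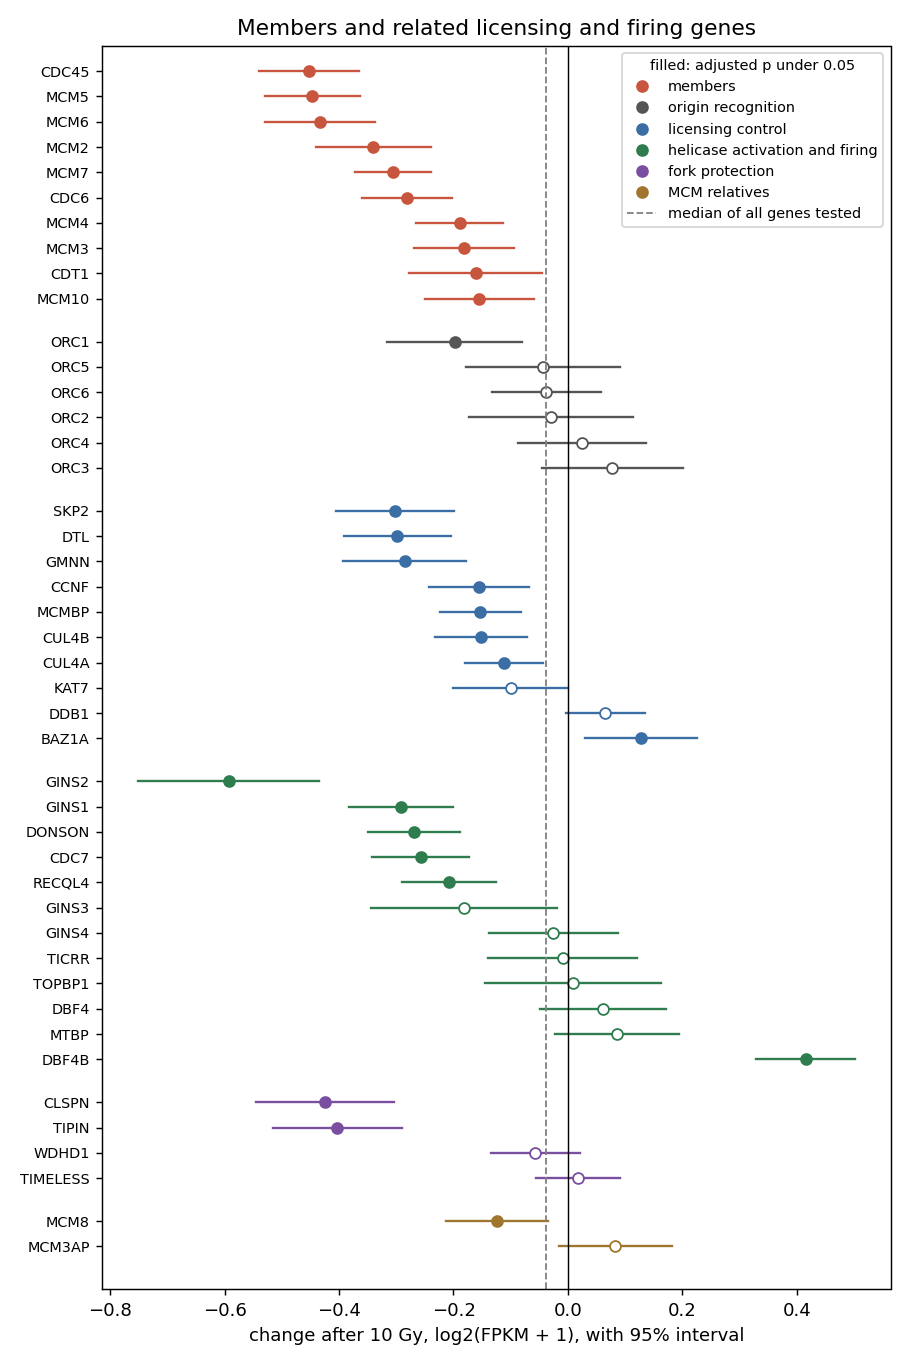
Change after 10 Gy on the log2(FPKM + 1) scale with its 95% interval, for the 10 genes and the 34 related genes tested, grouped by role; filled points had an adjusted p under 0.05 and the dashed line is the median of all genes tested (-0.04). All 10 genes of the first group lie left of the dashed line, while ORC2 to ORC6 lie around it.

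The E2F-type letters searched above were found for 14 of the 30 related genes with a promoter entry, or 46.7%. They were present for 10 of the 14 called lower and for 4 of the 14 that were not called. Since the lists were written with earlier results known, this split is a description.

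Upstream regulators and cell cycle genes give the setting. In the list of E2F, RB and G1/S control, 10 of 23 genes were called lower and 2 higher, with a median change of -0.11. Of all genes tested, 23.7% were called lower and 11.9% higher. Of those at 10 FPKM or more, 41.3% were lower, with a median change of -0.10 for that group. With TPM the median of the list became 0.01, and 5 were called lower and 4 higher, beside 8.83% and 25.8% of all genes tested. E2F1 was at 80.7, 72.9 and 71.9 FPKM and then at 63.4, 60.5 and 61.8 FPKM (-0.27, limma adjusted p = 0.0056). CDK4, a kinase that phosphorylates RB, was lower, with a log2 change of -0.58 (limma adjusted p = 0.00043), and so was CCNE2, a cyclin of CDK2, with -0.50 (limma adjusted p = 0.004). CDKN1A, which encodes the CDK inhibitor p21, was at 31.6, 31.9 and 28.8 FPKM and then at 22.7, 26.4 and 25.2 FPKM (-0.30, limma adjusted p = 0.01, and 0.052 with TPM). TFDP2, a dimer partner of E2F factors, and RBL2, a relative of RB, were higher, by 0.35 and 0.29 (limma adjusted p = 0.0021 and 0.0046).

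The mitotic list went the other way, with 8 of 10 genes called higher and 1 lower, and a median change of 0.29. Each scaling gave these same counts, while the deposited scaling called 11.9% of all genes tested higher and 23.7% lower. CCNB2, a mitotic cyclin, rose from 32.1 ± 1.75 to 47.3 ± 0.73 FPKM (0.55, limma adjusted p = 0.00058), and the kinase AURKA from 93.5 ± 1.84 to 132 ± 1.59 FPKM (0.49, limma adjusted p = 0.00035). AURKB was lower (-0.22, limma adjusted p = 0.0026). The proliferation marker MKI67 did not pass the test (0.02, limma adjusted p = 0.9). The part that the distribution of cells over the cycle had in the changes of the licensing genes was not tested.

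The genes lie in GRCh38 at chr3:127598223-127622436 (MCM2, plus strand), chr6:52264009-52284881 (MCM3, minus), chr22:35400063-35425430 (MCM5, plus), chr2:135839626-135876426 (MCM6, minus) and chr7:100092728-100101940 (MCM7, minus). MCM10 lies at chr10:13161554-13211104, CDC45 at chr22:19479459-19520612, CDC6 at chr17:40287633-40304657 and CDT1 at chr16:88803213-88809258, all on the plus strand. MCM7 shares 392 exonic bases, 8.94% of its exons, with AP4M1 on the opposite strand, whose level was 4.1996 FPKM at 0 Gy and 3.37 FPKM at 10 Gy. Its introns hold the microRNA genes MIR25, MIR93 and MIR106B, with 0 exonic bases in common. MCM2 shares 45 exonic bases with TPRA1 and 22.7% of its exon bases with the antisense AC023593.1, which was at 0.061 FPKM at 0 Gy. Whether the counting used strand is not stated in the sources used here, so reads in these shared bases cannot be assigned to either gene.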

How the data were processed

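The authors deposited FPKM values for 6 libraries made by their sequencing provider. The submitters' processing notes name HISAT2 and GRCh38, and the counting program and its strand setting are not given in the sources used here. Identifiers and coordinates matched GENCODE 29 for 58690 of 58735 genes, and the deposited length equals the union of exons for 58724. Samples were grouped by treatment label. The doses were set against each other with limma 3.58.1 (eBayes with trend) in R 4.3.3, using log2(FPKM + 1), which understates changes of low genes. The 12128 genes averaging 1 FPKM or more were tested, with Benjamini-Hochberg adjustment over all of them. Intervals are 95%. In simulated reads of 12159 genes for this comparison, 96% of 2-fold and 69% of 1.3-fold changes were recovered, and 5.71% of 175 calls were false. For ratios within libraries the exact permutation test was two-sided.

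The members and lists were chosen with earlier results of these data known, and lists came from general knowledge. Named were the 10 members, the ORC and GINS subunits, GMNN, DTL, CDC7, DBF4, E2F1 and CDKN1A, the 2 largest called rises and falls of each other list, and protein-coding genes among the 5 nearest in profile. Some items under these rules are not reported here. MKI67, MCM9, MCMDC2, the overlapping genes and TIMELESS were named after their values were seen. Promoters came from RefSeq. Scaling to recovered reads, principal transcript lengths and within-library ratios were added after seeing the data. Figures used Python 3.11.15 and matplotlib 3.10.9.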

Additional observations from a re-analysis of the deposited data

How the results depend on the processing

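Under 19 alternatives the log2 changes of the 10 genes gave 190 values, all below 0, of which 166 kept their side of the threshold and 24 did not. MCM2, MCM5, MCM6, MCM7, CDC6 and CDC45 stayed called throughout. MCM3 was lost with TPM and upper quartile scaling (adjusted p = 0.2 and 0.057), MCM4 with TPM (0.13), CDT1 in 11 alternatives and MCM10 in 10. With TPM, 6 of the 10 were called and 0 were lower by 1.3-fold, and 1071 genes were called lower and 3127 higher in all, with 9 related genes lower and 8 higher. Upper quartile scaling gave 0 members lower by 1.3-fold, 1444 genes lower and 2556 higher, and 10 related genes lower and 5 higher. Scaling to recovered reads gave 1 member lower by 1.3-fold, 1651 genes lower and 2295 higher, and 10 related genes lower and 4 higher, and median-of-ratios scaling 2047 lower and 1945 higher. The deposited values gave 2874 lower and 1443 higher. Without a filter 1815 genes were called lower, and with a minimum of 5 FPKM 874 were called higher. Related genes called higher were 1 rather than 2 without a filter, without the trend and with the replicate block, where BAZ1A lost its call. The highest over lowest level in MCM2 to MCM7 was 4.19 by deposited length and 3.55 by principal transcript.

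Leaving out each library in turn gave 2660 to 3993 called genes, 1808 to 2630 lower and 852 to 1393 higher, with 8 to 9 of the 10 members called and 12 to 17 related genes lower and 1 to 2 higher. The lowest counts came without replicate 1 (2705 called) or 2 (2660 called) of the 10 Gy group. With the replicate block, 3503 genes were called, 2366 lower and 1137 higher, and all 10 members were among them. Same-numbered libraries deviated with correlations of -0.04, -0.03 and -0.10, which show no shared replicate effect. With 3 libraries per dose this cannot tell whether same-numbered libraries were handled together. The members had at least 1005 reads per library. With 3 libraries per dose 69% of simulated 1.3-fold changes were recovered, but among genes of all levels from 1 FPKM. The simulation held no scaling factor between doses, so 69% is not the recovery for the members.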
